A study of Mus musculus with 6 samples.

Results

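Mitochondrial ribosomal protein genes were described in 6 mouse tumours profiled on 1-colour Affymetrix arrays. Members were the probe sets whose single platform gene symbol is Mrpl or Mrps followed by a number. They comprised 156 of the 45037 probe sets that are not controls, and 76 of 18193 genes, namely 47 Mrpl genes (104 probe sets) and 29 Mrps genes (52 probe sets). The family was selected on the measured difference between the host genotypes, because its members moved in both directions, so the differences between genotypes below are descriptions and carry no test.

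The tumours grew in male mice from GLMT1 cells, inoculated below the skin of the back; GLMT1 stands for a lung metastasis tumour of GRS/A mice. In the WT group the hosts were GRS/A mice with wild type tenascin-C, and in the TNKO group they were tenascin-C-deficient mice of the same background, GRS/A-TgH(TnC). Tenascin-C is a large secreted glycoprotein of the matrix around cells. Each group had 3 hosts, 8 weeks old at the start and 10 weeks old in the sample labels. All 6 tumours came from the same cell line, and the labels describe only the host as deficient. RNA was taken from excised tumours, so transcripts of tumour cells and of host cells in them share the same probe sets. In such bulk samples, fewer cells of a type and less RNA per cell cannot be told apart. The question behind the comparison is what the host's lack of tenascin-C does to expression in the tumour.

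Mitochondria carry their own ribosome, which translates the few proteins encoded in mitochondrial DNA, all of them subunits of the respiratory chain and ATP synthase. Its RNA parts are encoded in mitochondrial DNA, whereas its proteins are encoded in the nucleus, made in the cytosol and imported. Mrpl proteins belong to the large subunit, where peptide bonds form, and Mrps proteins mostly to the small subunit, which holds the messenger RNA. Some names do not follow the structure: in mammals Mrps18a and Mrps30 sit in the large subunit, and Mrps36 is a component of the 2-oxoglutarate dehydrogenase complex.

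The deposited values were taken as log2 values. On that scale the brightest probe set of each member gene lay between 6.72 and 10.74, with a median of 8.89, against a median of 7.09 over all genes. No member's brightest probe set lay under 6.57, the median level of all probe sets, while 33 of the 156 member probe sets did. These are probe set values, and levels of different probe sets cannot be set against each other as amounts of RNA. Between arrays the deposited values hardly moved. The widest member probe set spanned 82.6 millionths of a deposited unit over the 6 arrays, and 0 of 156 members spanned more than 100 millionths, against 3237 (7.19%) of all probe sets. Values are therefore given below as deviations from the probe set's mean over the 6 arrays, in millionths of a deposited unit. Differences are also given in residual SDs, that is, divided by the within-group SD of the same probe set. Neither can be read as a fold change.

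Mrpl20 belongs to the large subunit and was measured by a single probe set (1416093_a_at). Its deposited values were 9.065570318, 9.065569956 and 9.065569802 in the WT tumours and 9.065577987, 9.065577435 and 9.065576715 in the TNKO tumours. All 3 TNKO values were higher than all 3 WT values, and the values first differ in the fifth decimal. The mean deviation ± SD was -3.68 ± 0.265 millionths over the 3 WT tumours and 3.68 ± 0.638 over the 3 TNKO tumours. The difference, TNKO minus WT, was 7.35 millionths (SE 0.399) or 15.1 residual SDs, the highest of the 76 genes in residual SDs. After quantile normalization or subtraction of array medians the same difference was -694 or -756 millionths. The median difference over all probe sets was then -538 or -764 millionths.

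Mrpl19, a further large subunit protein, was measured by 4 probe sets. The brightest (1421914_s_at) deviated by 7.33, 1.72 and 10.6 millionths in WT hosts and by -6.70, -2.93 and -10.1 in TNKO hosts. Every TNKO tumour was lower than every WT tumour, with a difference of -13.1 millionths (SE 3.32) or -3.23 residual SDs. The next probe set (1450405_at) deviated by 16.0, 16.6 and 19.1 millionths in WT hosts and by -16.2, -18.2 and -17.3 in TNKO hosts, a difference of -34.5 millionths (SE 1.09) or -25.8 residual SDs. Both remaining probe sets, at levels of 6.67 and 5.67, differed by -0.645 and 0.374 millionths with overlapping groups.

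Of all probe sets, 79 (0.175%) passed limma's moderated test after Benjamini-Hochberg adjustment at 0.05. They included 2 of the 156 members, the Mrpl20 probe set and the second Mrpl19 probe set. Because this contrast chose the family, nothing is read from that count. Before adjustment, 31 members (19.9%) had a limma p under 0.05, against 20.3% of all probe sets. Neither of the 2 remained past the threshold with a block for the replicate number, or without any 1 of WT tumours 1 and 3 and the 3 TNKO tumours. Without WT tumour 2 there were again 2 member calls, the second Mrpl19 probe set and an Mrpl41 probe set (1428589_at).

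Among the other large subunit genes, Mrpl47 had the widest range. Its brightest probe set (1429054_at) deviated by -34.1, -18.6 and -32.7 millionths in WT hosts and by 33.4, 21.4 and 30.7 in TNKO hosts. The groups did not overlap, and the difference was 56.9 millionths (SE 6.12) or 7.59 residual SDs. Its 2 dimmer probe sets, at levels of 6.25 and 5.89, differed by 2.19 and 0.078 millionths.

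Mrpl41 deviated by -34.4, -6.19 and -26.4 millionths in WT hosts and by 27.4, 17.0 and 22.7 in TNKO hosts. The difference of its brightest probe set (1428588_a_at) was 44.7 millionths (SE 8.93) or 4.09 residual SDs, and the nearly as bright second probe set differed by 33.0 millionths or 4.89 residual SDs. The third, at a level of 5.74, differed by -0.454 millionths. Mrpl46 moved on a far smaller scale, with deviations of -0.552, -0.331 and -0.222 millionths in WT hosts and 0.566, 0.323 and 0.216 in TNKO hosts. Its difference of 0.736 millionths (SE 0.142) was still 4.24 residual SDs. Mrpl23 differed by 21.0 millionths or 3.86 residual SDs, again with all TNKO tumours higher.

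On the lower side, Mrpl43 deviated by 2.17, 0.366 and 4.42 millionths in WT hosts and by -0.511, -1.41 and -5.03 in TNKO hosts. The groups were separate, with WT tumour 2 and TNKO tumour 1 close together, and the difference was -4.63 millionths (SE 1.81) or -2.09 residual SDs. Mrpl19 and Mrpl43 were the only Mrpl genes whose brightest probe set was lower in all 3 TNKO tumours than in all 3 WT tumours on the values as deposited.

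The stalk proteins Mrpl10 and Mrpl12, which contact translation factors, showed no separation of the groups. Mrpl12 deviated by -7.91, 1.38 and -6.70 millionths in WT hosts and by 11.2, 4.35 and -2.31 in TNKO hosts, with TNKO tumour 3 below WT tumour 2. Mrpl10 deviated by 5.63, -6.72 and 8.34 millionths in WT hosts and by 5.33, -0.675 and -11.9 in TNKO hosts. Mrpl45, which meets the membrane insertase Oxa1l at the exit of the ribosome, differed by -30.1 millionths (SE 14.04), and TNKO tumour 1 lay above WT tumour 2. In all 3 of these genes TNKO tumour 1 was the highest and TNKO tumour 3 the lowest of the TNKO tumours.

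**Figure D1:**
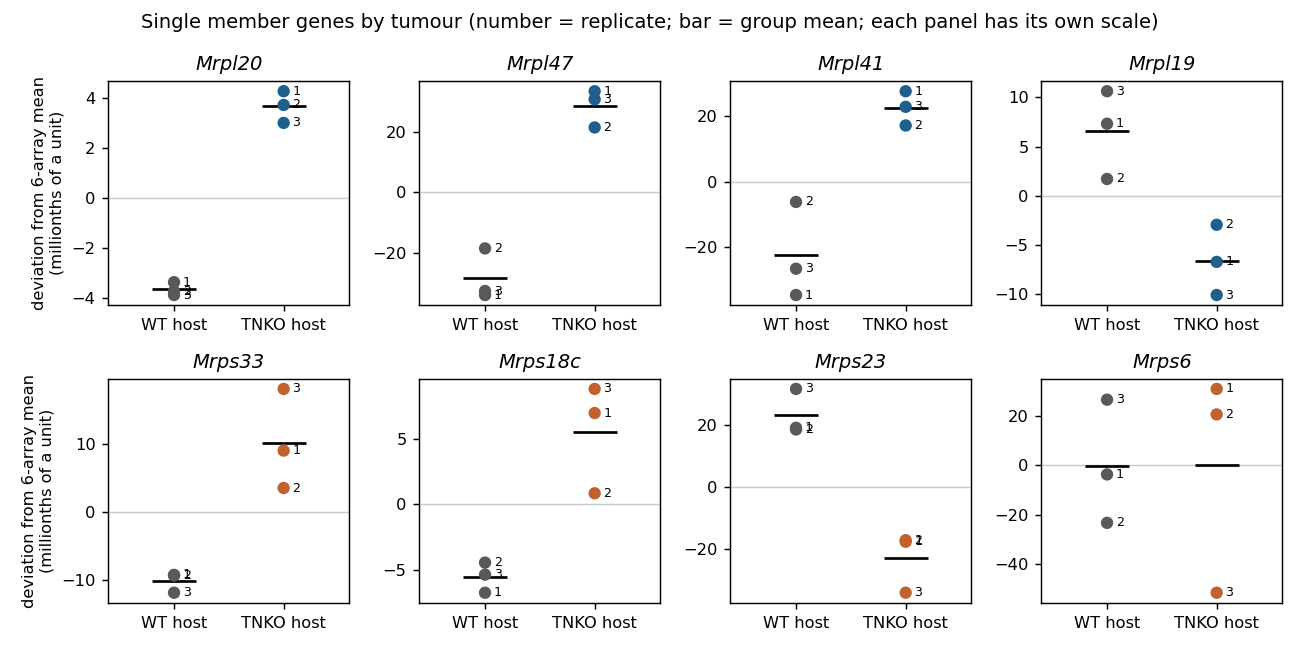
Deviation from the probe set's mean over the 6 arrays, in millionths of a deposited unit, for the brightest probe set of 8 genes, 1 point per tumour (number, replicate; bar, group mean of n = 3; each panel has its own scale). Mrpl20, Mrpl47, Mrpl41, Mrps33 and Mrps18c were higher and Mrpl19 and Mrps23 lower in all TNKO tumours on the values as deposited, while Mrps6 had equal group means and a TNKO spread from -51.6 to 31.0. With array medians subtracted or quantile normalization all 8 were lower, and the median difference over all probe sets was then -764 or -538 millionths.

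Among the small subunit genes the largest differences in residual SDs ran in both directions. Mrps33 (1427173_a_at) deviated by -9.27, -9.37 and -11.9 millionths in WT hosts and by 8.99, 3.49 and 18.1 in TNKO hosts. The difference was 20.4 millionths (SE 4.33) or 3.84 residual SDs, with TNKO tumour 3 highest. Mrps14 differed by 1.70 millionths or 3.78 residual SDs in its brightest probe set, whereas its 2 dimmer probe sets differed by -0.613 and -0.669 millionths. Mrps24 differed by 4.05 millionths or 2.80 residual SDs, and its second probe set, of similar level, by 9.10 millionths or 4.81 residual SDs. Mrps16 differed by 1.06 millionths or 2.51 residual SDs.

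Mrps23 was the lowest small subunit gene in residual SDs. Its brightest probe set (1421874_a_at) deviated by 19.1, 18.6 and 31.7 millionths in WT hosts and by -17.8, -17.3 and -34.3 in TNKO hosts. The difference was -46.3 millionths (SE 7.05) or -5.36 residual SDs. The second probe set, at a level of 8.20 against 8.35, differed by only -0.263 millionths, although its groups did not overlap either and that amounted to -3.78 residual SDs. The third, at a level of 6.79, differed by 0.108 millionths with overlapping groups. The 2 brighter probe sets, of nearly the same level, thus differed in the size of their change by far more than either SE. Mrps17 differed by -9.07 millionths or -2.68 residual SDs. Mrps5 differed by -3.50 millionths or -1.41 residual SDs, with WT tumour 1 apart from the other 2 WT tumours, and all 5 of its probe sets were lower in TNKO hosts on the values as deposited.

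Mrps6 had the widest range of any member, and no difference in mean. It deviated by -3.62, -23.3 and 26.7 millionths in WT hosts and by 31.0, 20.7 and -51.6 in TNKO hosts, so TNKO tumours 1 and 3 were its highest and lowest values. The difference was 0.118 millionths (SE 29.8).

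The 3 Mrps18 paralogs differed from one another. In mammals they take different places in the ribosome, Mrps18a in the large subunit, and Mrps18b and Mrps18c in the small one. Mrps18c deviated by -6.76, -4.46 and -5.38 millionths in WT hosts and by 6.96, 0.832 and 8.80 in TNKO hosts, 3.61 residual SDs apart with no overlap. Mrps18a deviated by 1.35, -0.665 and 1.80 millionths in WT hosts and by 1.25, -0.0798 and -3.65 in TNKO hosts, and the groups overlapped. Mrps18b ranged from 0.708 to 4.68 millionths in WT hosts but from -17.9 to 13.8 in TNKO hosts, an SD of 15.9 against 1.99 (n = 3 each).

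Counted over the 76 genes with 1 probe set each, the brightest, 48 were higher and 28 lower in TNKO hosts on the values as deposited. Of all 18193 genes, 10473 were higher and 7720 lower. All 76 members were lower after quantile normalization or subtraction of array medians. These scalings moved the whole array: the median difference over all probe sets was 0.0997 millionths as deposited and then -538 or -764. The 76 lower genes are therefore not a result about the members. The array median was 6.569797 in TNKO tumour 3 and between 6.567399 and 6.567580 in the others, a gap larger than the whole range of any member. As deposited, Mrpl genes were higher in 33 and lower in 14, and Mrps genes higher in 15 and lower in 14. The median difference was 0.508 residual SDs over Mrpl genes and 0.00325 over Mrps genes, against 0.302 over all 76 and 0.283 over all genes. The groups did not overlap for 19 members with TNKO higher and 5 with TNKO lower. Over all genes the same held for 15% in the higher and 11.1% in the lower direction, and since this contrast chose the members nothing is read from their counts.

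**Figure D2:**
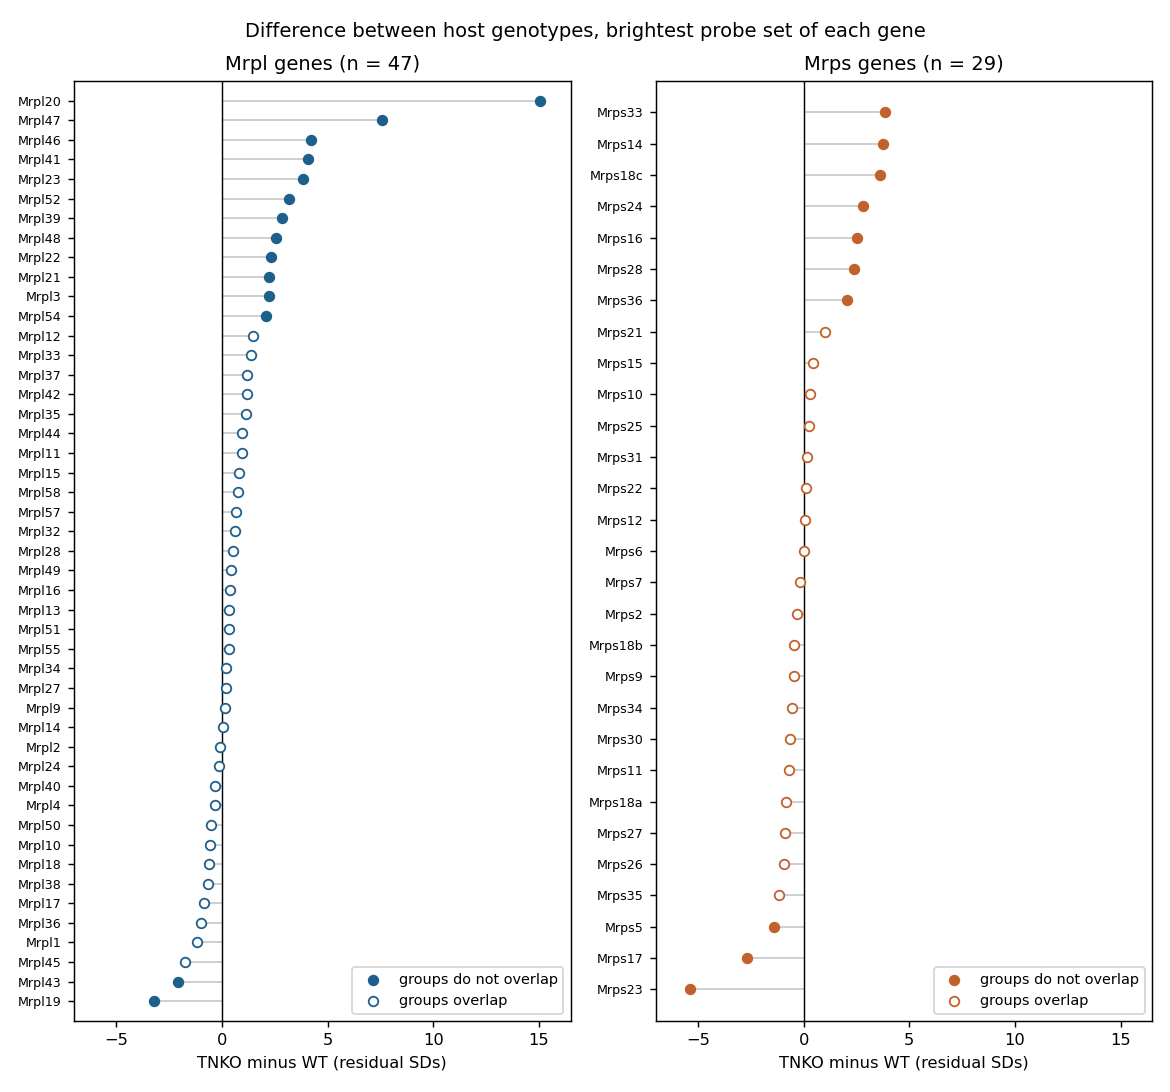
TNKO minus WT in residual SDs for the brightest probe set of each of the 76 genes, Mrpl genes on the left and Mrps genes on the right; filled points are genes whose 3 TNKO values all lie on 1 side of the 3 WT values. On the values as deposited 10473 of all 18193 genes were higher in TNKO hosts, and 33 of 47 Mrpl and 15 of 29 Mrps genes lie above 0. After quantile normalization or subtraction of array medians all 76 lie below it, and the median difference over all probe sets was then -538 or -764 millionths.

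Those counts rested in part on single tumours. Without TNKO tumour 1, 34 genes were higher and 42 lower, and the median difference was -0.134 residual SDs of that reduced fit. Without TNKO tumour 3, 55 were higher and 21 lower, and the median was 1.24 residual SDs of that reduced fit. The groups then did not overlap for 38 genes, 32 of them with TNKO higher. Groups separate more easily with 1 array fewer, and the share over all genes was not counted there. Nothing is therefore read from the 38. Leaving out any 1 of the other tumours kept between 44 and 49 genes higher.

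The TNKO tumours differed among themselves, and in the same way for many members. TNKO tumour 1 had the highest value of the 6 arrays for 39 of the 76 genes (51.3%), against 19.8% of all genes, and TNKO tumour 3 had the lowest for 35 (46.1%), against 17.8% of all genes. TNKO tumour 1 lay above TNKO tumour 3 in 65 members, 40 of 47 Mrpl and 25 of 29 Mrps genes, against 9938 of the 18193 genes. In 43 members tumour 1 was highest, tumour 3 lowest and tumour 2 between them within the TNKO group, against 3704 of the 18193 genes. The spread within the TNKO group exceeded that within the WT group in 54 members, against 9628 of the 18193 genes. Both kinds of gene shared the pattern: in residual SDs, the median deviation in the 3 TNKO tumours was 1.15, 0.535 and -0.493 over Mrpl genes and 0.86, 0.272 and -0.991 over Mrps genes. In WT tumours the medians over all 76 genes were closer together, at -0.282, -0.0826 and -0.495. The genes were measured on the same arrays and are not independent of each other.

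**Figure D3:**
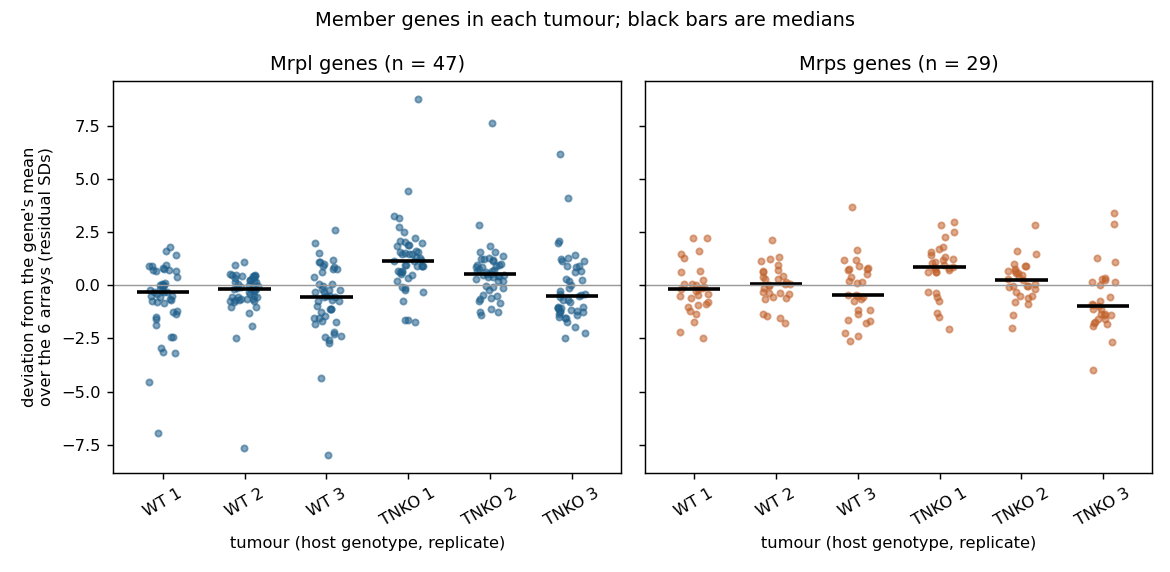
Deviation of each member gene from its mean over the 6 arrays, in residual SDs, by tumour (point, gene; black bar, median). Over Mrpl and Mrps genes the medians were highest in TNKO tumour 1 (1.15 and 0.86) and, within the TNKO group, lowest in TNKO tumour 3 (-0.493 and -0.991), with WT medians between -0.546 and 0.0683; with array medians subtracted TNKO tumour 3 was lowest for all 76 genes.

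Which TNKO tumour stood highest or lowest depended on the scaling, and the cause was not tested. Subtracting each array's median deviation over all probe sets in place of its median left 39 members highest in TNKO tumour 1 and 34 lowest in TNKO tumour 3. With array medians subtracted TNKO tumour 3 was lowest for all 76 members and for 17942 of 18193 genes, and after quantile normalization for 75 members and 17737 genes. TNKO tumour 1 was then the highest for 0 members with array medians subtracted and for 1 after quantile normalization, against 456 and 3050 of all genes. It lay above TNKO tumour 2 in 57 members as deposited, in 1 after quantile normalization, in 76 with array medians subtracted and in 58 with median deviations subtracted. Of all 18193 genes the same held for 9133, 4618, 17399 and 9397, in that order. TNKO tumour 1 lay above TNKO tumour 3 in 76 members with array medians subtracted and in 75 after quantile normalization, as in 18035 and 17903 of all genes.

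Other lists of mitochondrial gene expression shared this only in part. As deposited, TNKO tumour 1 lay above TNKO tumour 3 in 11 of 14 translation factors and 15 of 19 genes of tRNA charging. The same held for 19 of 26 assembly factors and rRNA-modifying enzymes and 3 of 4 mitoribosome proteins with other symbols. It held for 6 of 10 genes of mitochondrial DNA transcription and replication and 5 of 9 nuclear regulators, against 9938 of 18193 genes. TNKO tumour 3 was the lowest array for 7 of the 14 translation factors. It was lowest for only 4 of the 26 assembly factors and rRNA-modifying enzymes and 3 of the 19 genes of tRNA charging, against 17.8% of all genes. In the lists of 10, 9 and 4 genes it was lowest for 1, 2 and 0. Proteins of the cytosolic ribosome, the other ribosome of the cell, were set beside these. Of 43 such genes TNKO tumour 3 was the highest array in 17 and TNKO tumour 1 in 12, and TNKO tumour 1 lay above TNKO tumour 3 in 18. The corresponding counts for the 76 mitochondrial genes were 5, 39 and 65. The median deviations of the cytosolic genes in the 3 TNKO tumours were 0.619, 0.559 and 1.41 residual SDs. The difference between these sets was not tested, and after subtraction of array medians TNKO tumour 3 was lowest for nearly all genes.

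**Figure D4:**
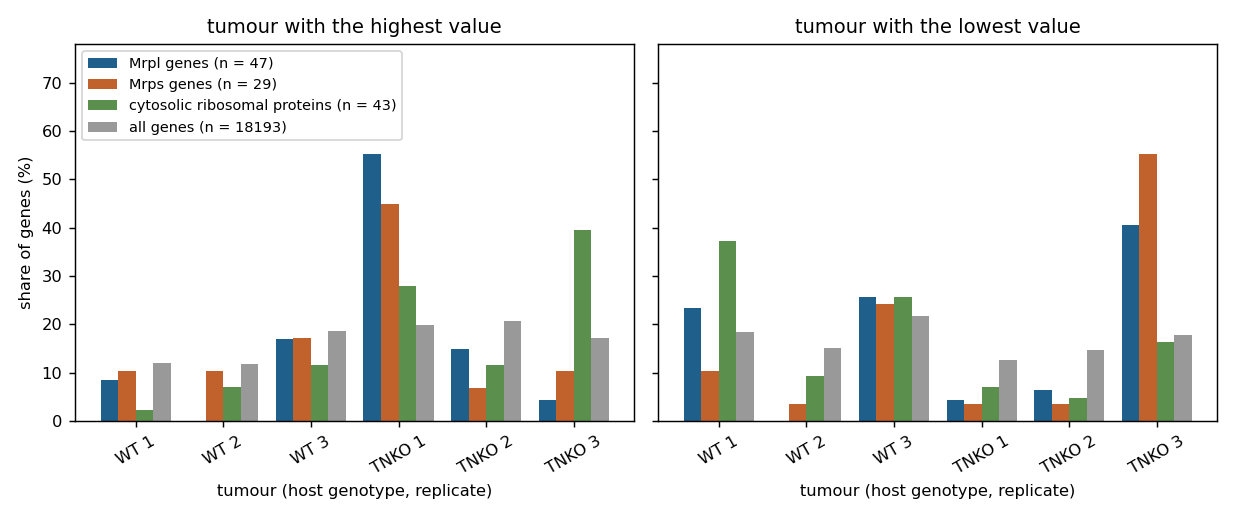
Share of genes (%) for which each tumour had the highest (left) or lowest (right) value of the 6, for 47 Mrpl genes, 29 Mrps genes, 43 cytosolic ribosomal protein genes and all 18193 genes, on the values as deposited. TNKO tumour 1 was highest for 55.3% of Mrpl and 44.8% of Mrps genes, and TNKO tumour 3 highest for 39.5% of the cytosolic ribosomal protein genes. With array medians subtracted TNKO tumour 1 was highest for 0 of the 76 members and for 456 of all 18193 genes.

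Other quantities also separated the TNKO tumours. The mean level over 10 skeletal muscle markers was 6.49 and 6.55 in TNKO tumours 1 and 2, and 7.01 in the remaining one; WT tumours had 6.90 to 7.04. The mean over 6 adipocyte markers was 7.56, 7.45 and 7.17 in the TNKO tumours and 6.96 to 7.25 in WT tumours, and TNKO tumour 1 was the highest array for all 6. Over 6 hair and epidermis markers it was 7.50 in TNKO tumour 3 and 6.24 to 6.27 in every other tumour. That mean rested on 3 of the 6, Krtap8-1, Krt31 and Krt35, which deviated by 5.47e+06, 4.36e+05 and 3.59e+05 millionths in TNKO tumour 3. The other 3, Krt10, Krt1 and Lor, were highest in WT tumour 3. Endothelial markers also separated the TNKO tumours: TNKO tumour 1 was the highest array for all 4, with TNKO tumour 2 next and TNKO tumour 3 last within the group, and the median deviations were 1.34, 0.766 and -0.246 residual SDs. Their ranges over the 6 arrays went up to 905 millionths, beyond that of any member. For luminal mammary epithelium markers the widest range was 1037 millionths, for macrophage markers 109 and for lymphocyte markers 16.8. The lowest of the 39 marker genes stood at 5.73, close to the 5.23 of the lowest of all genes. A marker's level therefore does not show that it was detected. All 18 hybridisation control probe sets, which measure RNA added at hybridisation, were higher on average in TNKO hosts, and TNKO tumour 2 was the highest array for all 18. The part of these quantities in the members' pattern was not tested.

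Small and large subunit genes were also set against each other within each array. In residual SDs, the median deviation over Mrps genes minus that over Mrpl genes was 0.125, 0.251 and 0.104 in WT hosts and -0.292, -0.264 and -0.498 in TNKO hosts. All 3 TNKO values were lower than all 3 WT values, with means of 0.160 and -0.351 and a pooled SD within groups of 0.106. The rule used this contrast, so the difference of -0.511 residual SDs is a description. Moving Mrps18a and Mrps30 to the large subunit and leaving out Mrps36, as the mammalian structure has them, gave -0.461. Leaving out 1 tumour at a time gave -0.399 to -0.721, and reading each gene as the mean of its probe sets gave -0.931. With array medians subtracted the value was 0.000154, and after quantile normalization 0.035. Each scaling was divided by the residual SDs of its own fit, which the scaling changes along with the values. The sizes therefore cannot be set against -0.511.

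Probe sets of the same gene often disagreed. Of the 76 genes, 34 had a single probe set and 42 several, up to 8 for Mrpl15. The other probe sets went in the direction of the brightest in 48 of 80 cases, and all probe sets of a gene ran one way for 21 of 42 genes. Among other probe sets at a level of at least 8, 11 of 17 had the direction of the brightest. A further 4 probe sets carried a member symbol among several and were left out. They paired Mrpl30 with Gm6238 (2 probe sets), Mrps34 with Nme3 and Mrpl53 with Ccdc142, and were 0.998 to 2.50 residual SDs higher in TNKO hosts as deposited.

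Of the other proteins of the mitochondrial ribosome, whose symbols are not Mrpl or Mrps, 4 were measured and 0 passed limma's test over all probe sets (1 had an unadjusted p under 0.05). The counts of unadjusted limma p under 0.05 here and below stand beside 20.3% of all probe sets as deposited. After quantile normalization only 591 of all 45037 probe sets had such a p. Chchd1, a small subunit protein, deviated by -36.7, -17.2 and -23.1 millionths in WT hosts and by 28.5, 7.15 and 41.3 in TNKO hosts, a difference of 51.3 millionths (SE 11.5, limma adjusted p = 0.119). Gadd45gip1, a large subunit protein also known as Crif1, differed by 1.91 millionths (limma adjusted p = 0.304). Of 26 assembly factors and rRNA-modifying enzymes 0 passed limma's test in either direction, and 7 had an unadjusted p under 0.05. The lowest unadjusted p among them belonged to Nsun4, an rRNA methyltransferase that helps join the subunits, at -3.40 millionths (limma adjusted p = 0.107), followed by Fastkd2, an RNA-binding assembly factor, at 3.72 millionths (limma adjusted p = 0.166). Of 14 translation factors 0 passed by limma and 3 had an unadjusted p under 0.05. Mtif2, the initiation factor that brings the first tRNA, differed by -1.79 millionths or -7.39 residual SDs (limma adjusted p = 0.0864), and Slirp, which binds mitochondrial messenger RNAs, by 16.0 millionths or 4.52 residual SDs (limma adjusted p = 0.096).

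Of 19 genes for charging mitochondrial tRNAs 0 passed by limma and 7 had an unadjusted p under 0.05, where 20.3% of all probe sets had one. The 10 higher and 9 lower genes had a median difference of 0.0948 residual SDs on the values as deposited. Gatc, a subunit of the glutaminyl-tRNA amidotransferase, differed by 3.69 millionths (limma adjusted p = 0.112), and Yars2, the tyrosyl-tRNA synthetase, by -13.7 (limma adjusted p = 0.127). Of 10 genes of mitochondrial DNA transcription and replication 0 passed by limma and 2 had an unadjusted p under 0.05. Polrmt, the mitochondrial RNA polymerase, differed by -27.7 millionths or -5.43 residual SDs (limma adjusted p = 0.0782), and Polg2, the accessory subunit of the DNA polymerase, by -5.26 millionths (limma adjusted p = 0.204). Of 9 nuclear regulators of mitochondrial genes 0 passed by limma and 2 had an unadjusted p under 0.05. Ppargc1a, a coactivator of mitochondrial biogenesis, differed by 5.71 millionths or 6.38 residual SDs at a low level of 5.94 (limma adjusted p = 0.0702). Gabpb1, a subunit of the ETS factor GABP, differed by -3.99 millionths (limma adjusted p = 0.162), and its partner Gabpa by 0.343 (limma adjusted p = 0.923).

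The nuclear genes of mitochondrial proteins are known for promoters with sites of ETS factors such as GABP, of NRF1 and of YY1. RefSeq promoter windows (GRCm38.p6, 250 bases before to 50 after the start of the gene) were matched by symbol to 67 of the 76 genes, as 73 windows, because some genes have several starts. Their median GC content was 58.7%, against 52.7% over all 32851 windows, and they held a median of 21 CG pairs against 7. Motifs were searched on both strands, and overlapping matches were counted apart. The ETS motif CCGGAAG occurred in 25 of 73 windows (34.2%), against 8.86% of all windows. The NRF1 motif GCGCATGC occurred in 8 (10.96%), against 2.71%, and the YY1 motif AAGATGGC in 12 (16.4%), against 2.75%. At least 1 of these was present in 37 windows (50.7%), against 13.3% of all. The NF-Y motif CCAAT was about as frequent in members (39.7%) as in all windows (37.4%), the E-box CACGTG occurred in 9.59% against 7.15%, and the TBP motif TATAAA in 6.85% against 13.6%. A match describes letters, and says nothing of a factor's binding.

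Of 29 ETS matches 24 were centred between 60 bases before the start and the end of the window, as were 7 of 14 NRF1 matches, and of 12 YY1 matches 8 were centred after the start. The difference between genotypes was set beside the motif: as deposited, 17 of 25 genes with the ETS motif and 27 of 42 without it were higher in TNKO hosts, with medians of 0.353 and 0.302 residual SDs.

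**Figure D5:**
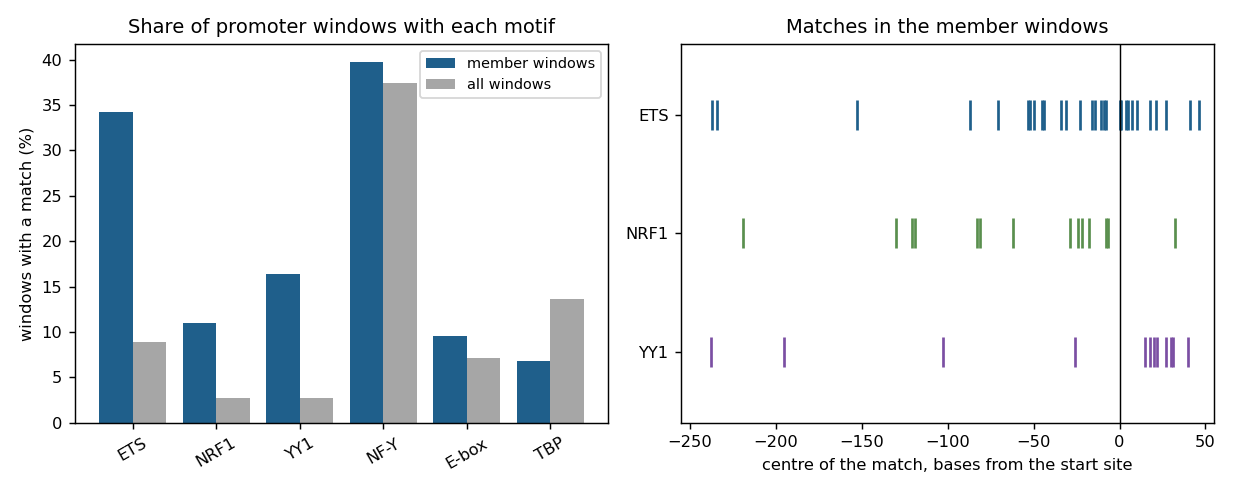
Left, share of promoter windows (%) with a match to each of 6 motifs, 73 member windows against 32851 windows in all. Right, position of ETS, NRF1 and YY1 matches in the member windows, as bases from the start site (0); 34.2% of member windows and 8.86% of all windows held the ETS motif.

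Bases before the start of 7 genes are printed 5′ to 3′ on the strand of the gene, with ETS and NRF1 matches in capitals. They show the 2 genes with the largest differences in residual SDs, neither with a match in this stretch, members with ETS matches, NRF1 matches or both, and the interval between the starts of 2 members.
Mrpl20 (chr4:155802758-155802877, GRCm38.p6, plus strand): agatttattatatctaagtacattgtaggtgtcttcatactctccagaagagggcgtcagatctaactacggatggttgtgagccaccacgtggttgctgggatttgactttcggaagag
Mrpl47 (chr3:32736756-32736875, GRCm38.p6, minus strand): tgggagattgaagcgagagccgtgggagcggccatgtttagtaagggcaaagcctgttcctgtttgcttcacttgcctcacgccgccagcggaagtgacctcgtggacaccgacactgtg
Mrpl43 (chr19:45006443-45006557, GRCm38.p6, minus strand): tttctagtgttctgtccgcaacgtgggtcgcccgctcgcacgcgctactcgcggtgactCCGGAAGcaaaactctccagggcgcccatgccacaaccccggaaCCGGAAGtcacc
Mrpl46 (chr7:78783090-78783130, GRCm38.p6, minus strand): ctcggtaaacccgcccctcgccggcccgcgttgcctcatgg
Mrpl22 (chr11:58171544-58171663, GRCm38.p6, plus strand): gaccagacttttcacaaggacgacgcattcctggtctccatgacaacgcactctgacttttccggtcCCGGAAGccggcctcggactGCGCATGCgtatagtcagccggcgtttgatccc
Mrps18a (chr17:46110884-46111003, GRCm38.p6, plus strand): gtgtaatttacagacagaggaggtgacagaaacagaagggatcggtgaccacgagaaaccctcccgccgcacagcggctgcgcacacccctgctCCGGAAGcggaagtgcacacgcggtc
Mrpl32 (chr13:14613038-14613157, GRCm38.p6, minus strand): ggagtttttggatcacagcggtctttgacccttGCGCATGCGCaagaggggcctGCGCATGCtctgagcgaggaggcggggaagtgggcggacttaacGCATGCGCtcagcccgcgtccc

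Mrpl20 and Mrpl47, at 15.1 and 7.59 residual SDs, held none of the 3 motifs in these stretches. Mrpl43, among the few Mrpl genes with lower values in all TNKO tumours as deposited, had 2 ETS matches, and the stretch shown is the whole interval between its start and that of Twnk, the mitochondrial DNA helicase, which lies 116 bases away on the other strand. Twnk differed by 0.533 residual SDs where Mrpl43 differed by -2.09. Mrpl22, with 1 ETS and 1 NRF1 match, differed by 2.34 residual SDs with no overlap of the groups. Mrps18a had 1 ETS match in this stretch and a YY1 match centred 15 bases after the start, and differed by -0.821. Mrpl32 had 4 NRF1 matches in its stretch, of which 2 overlap, and a YY1 match centred 238 bases before the start. It differed by 0.619.

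Such head-to-head pairs, with the start of another gene within 1000 bases on the opposite strand, were found for 27 of 73 member windows (37.0%), of 25 genes, against 11.3% of all windows. One pair consisted of 2 members: Mrpl46 of the large subunit and Mrps11 of the small subunit start 42 bases apart, and the 41 bases printed for Mrpl46 are all that lies between them. Mrpl46 differed by 4.24 residual SDs and Mrps11 by -0.670, the first with separate and the second with overlapping groups. Mrpl47 faces Ndufb5, a subunit of respiratory complex I, at 308 bases, and the 2 genes differed by 7.59 and 2.04 residual SDs. Mrps12 faces Sars2, the mitochondrial seryl-tRNA synthetase, at 147 bases, with differences of 0.0459 and 0.0948.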

How the data were processed

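Total RNA of 3 tumours from WT hosts and 3 from TNKO hosts was labelled with biotin and hybridised to 1 array each, per the labels' protocols. The authors deposited 1 normalized value per probe set and array, taken here as log2 from its range. Neither the base nor the summarization and normalization methods are given in the sources used here, beyond R 2.7.2, listed by the submitters' processing notes. The number of arrays limits the precision.

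Controls (64 probe sets) were left out. Symbols came from the platform's annotation, and the probe set with the highest mean stood for a gene. All 45037 probe sets were fitted in R 4.3.3 by lmFit and eBayes of limma 3.58.1 (two-sided, Benjamini-Hochberg, threshold 0.05). The code was also run on simulated data with independent noise in each probe set and no shift between arrays. That run says nothing of the scaling. Residual SDs are those of the fit to the deposited values, before moderation. Promoter windows were RefSeq's (GRCm38.p6).

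The members and all lists were chosen with earlier results of these data known. Genes named are members that passed over all probe sets, the 5 largest differences in residual SDs with separate groups per subunit and direction, the Mrps18 paralogs, Mrpl10, Mrpl12, Mrpl45, the 2 widest ranges per subunit, and up to 2 genes of each other list by unadjusted p. Mrpl22, Mrpl32, Mrps11, Mrps12, Gabpa and the facing genes were named after their values or sequences were seen. As alternatives, arrays were quantile-normalized or centred on their medians, weighted or left out in turn, eBayes was run robustly or with a trend, a replicate block was added, only the brighter probe sets were tested, and a gene's probe sets were averaged. Subtraction of median deviations and the structural assignment of subunits were added after seeing the data.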

Additional observations from a re-analysis of the deposited data

How the results depend on the processing

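The scaling mattered most. After quantile normalization and after subtraction of array medians, 0 member probe sets passed (2 as deposited), and 0 genes were higher and 76 lower. The groups did not overlap for 13 and 0 genes (24 as deposited). That share was not counted over all genes after either scaling, so nothing is read from these counts. In residual SDs of their own fits, the median difference was -0.989 and -0.805 after these scalings, and that of small minus large subunit 0.035 and 0.000154. Those SDs differ from the SDs as deposited. Mrpl20 differed by -694 and -756 millionths. Over all probe sets the median difference was -538 and -764 millionths. Quantile normalization left 0 of all 45037 probe sets past the limma threshold, with 591 (4 members) at an unadjusted p under 0.05, and subtraction of medians left 68, with 87 (0 members). Subtracting median deviations kept 2 calls and 47 higher genes.

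The replicate numbers do not pair the tumours by the labels, and same-numbered residuals correlated by 0.0289, -0.0157 and 0.00531. With the replicate block, limma called 0 members (24 at an unadjusted p under 0.05) and 0 of all probe sets (7816 at an unadjusted p under 0.05). Small minus large subunit was -0.637, against -0.511 as deposited. The block leaves the values and group differences unchanged, so only the residual SDs moved it. Without 1 replicate, the calls were 0 to 2, higher genes 34 to 55, lower genes 21 to 42 and genes with separate groups 26 to 38. Fewer arrays separate more easily, and separate groups were not counted over all genes in those runs. In residual SDs of each reduced fit, the median difference was -0.134 to 1.24 and small minus large -0.721 to -0.399. With a gene's probe sets averaged, small minus large was -0.931. Testing the brighter probe sets called 285 of 22518 and 3 members. A trend, robust eBayes and array weights each called 2 members.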
